A study of Mus musculus with 6 samples.

Results

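Tubulin genes were described in RNA of collecting duct cells isolated from mouse kidney. The members are 10 genes that encode alpha-tubulin (Tuba1a, Tuba1b, Tuba1c and Tuba4a) or beta-tubulin (Tubb2a, Tubb2b, Tubb3, Tubb4b, Tubb5 and Tubb6), out of 24938 genes measured. Every deposited transcript identifier that shared at least 50% of its exonic bases with a member gene on the same strand was summed into that gene. The family was picked because earlier results of these same libraries had shown higher tubulin counts on the low-NaCl diet. The diet differences of the 10 members are therefore given as a description, with no p-value. The mice were males of the inbred strain C57BL/6J. For 5 days they ate either a low-NaCl diet of 0.01 to 0.02% sodium (3 libraries) or a high-NaCl diet of 2.4% sodium (3 libraries), and no untreated group was analysed here. Age, the isolation of the cells and the animals behind each library are absent from the labels, so a p-value here reflects library-to-library variation that could be technical. The libraries held 40101899 to 46861531 counted reads.

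Microtubules are hollow polymers of a dimer that holds an alpha- and a beta-tubulin. In tubule epithelium they run from the apical to the basal side and carry vesicles, among them those that bring water channels to the apical membrane of principal cells, and they form the core of the primary cilium. Cells hold the amount of free tubulin in check by autoregulation: when free dimers are abundant, the protein TTC5 binds the first residues of a nascent tubulin chain at the ribosome and the messenger RNA is degraded. Isotypes of tubulin resemble each other over most of their length and differ mainly in the tail at the end of the protein.

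The stretch that TTC5 recognises is encoded by the first codons, and it is shown to place the members in their 2 classes. The first 30 coding bases of the GENCODE transcripts follow, 5′ to 3′, with the first 12 bases, the start codon and the next 3 codons, in capitals.
Tuba1a: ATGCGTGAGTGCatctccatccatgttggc
Tuba1b: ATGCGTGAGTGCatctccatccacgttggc
Tuba4a: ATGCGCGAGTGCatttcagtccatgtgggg
Tubb2a: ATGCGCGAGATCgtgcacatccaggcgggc
Tubb2b: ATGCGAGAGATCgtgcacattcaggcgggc
Tubb4b: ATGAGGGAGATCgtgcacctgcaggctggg
Tubb5: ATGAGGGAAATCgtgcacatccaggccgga
Tuba1c shares all 30 of these bases with Tuba1b.

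Alpha genes differ in their last codon, which decides whether the finished protein ends in the tyrosine that tubulin-modifying enzymes remove and restore. The last 30 coding bases before the stop codon are given with the final triplet in capitals.
Tuba1c: gctgaaggagacgatgagggtgaggaaTAT
Tuba4a: tcctatgaggacgaggatgagggagaaGAG
The final triplet of Tuba1c encodes tyrosine, whereas that of Tuba4a encodes glutamate. Among the beta genes, the last 60 coding bases show how near Tubb2a and Tubb2b are to each other, and capitals mark where a sequence departs from Tubb2a.
Tubb2a: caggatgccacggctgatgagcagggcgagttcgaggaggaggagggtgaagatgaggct
Tubb2b: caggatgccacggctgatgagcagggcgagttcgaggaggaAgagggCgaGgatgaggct
Tubb4b: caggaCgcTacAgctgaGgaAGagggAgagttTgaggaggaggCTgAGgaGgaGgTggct
Tubb2b departs from Tubb2a at 3 of these 60 bases and Tubb4b at 15.

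This likeness bears on the counts. Over the whole coding sequence Tuba1a was 98.3% identical to Tuba1b and 97.1% to Tuba1c, and Tubb2a was 96.5% identical to Tubb2b, whereas Tuba4a was 84.7% identical to Tuba1a and Tubb5 84.6% to Tubb2a. A second limit is that a read was counted only where its exon belonged to a single deposited identifier, which makes a base countable. All exonic bases were countable for Tuba1a, Tuba1c, Tubb2a, Tubb2b, Tubb3 and Tubb5. The countable share was 92.2% for Tubb4b, 75.3% for Tuba1b, 69.2% for Tuba4a, where identifiers of Stk16 on the opposite strand share 633 exonic bases, and 25.8% for Tubb6. Within the countable bases, every window of 50 bases was looked up in all annotated transcripts. Only 5.06% of the windows of Tuba1b, 17.3% of those of Tuba1a and 38.9% of those of Tuba1c were found in no other gene. The shares were 50.2% for Tubb2a, 55.2% for Tubb2b and 44.8% for Tubb4b, whose windows recurred most often in the pseudogene Tubb4b-ps1, and 97.7% for Tuba4a and 99.9% for Tubb5. The counting command named no option for reads that map to several places, and by that program's default a read marked as such in the alignment is left out. The aligner, how it reported such reads and the read length are not stated in the sources used here. Reads of Tuba1a, Tuba1b and Tuba1c, and those of Tubb2a and Tubb2b, may have been lost or divided between these genes. The same holds for Tubb4b and Tubb4b-ps1, which share 47.3% of the countable 50-base windows of Tubb4b.

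**Figure D1:**
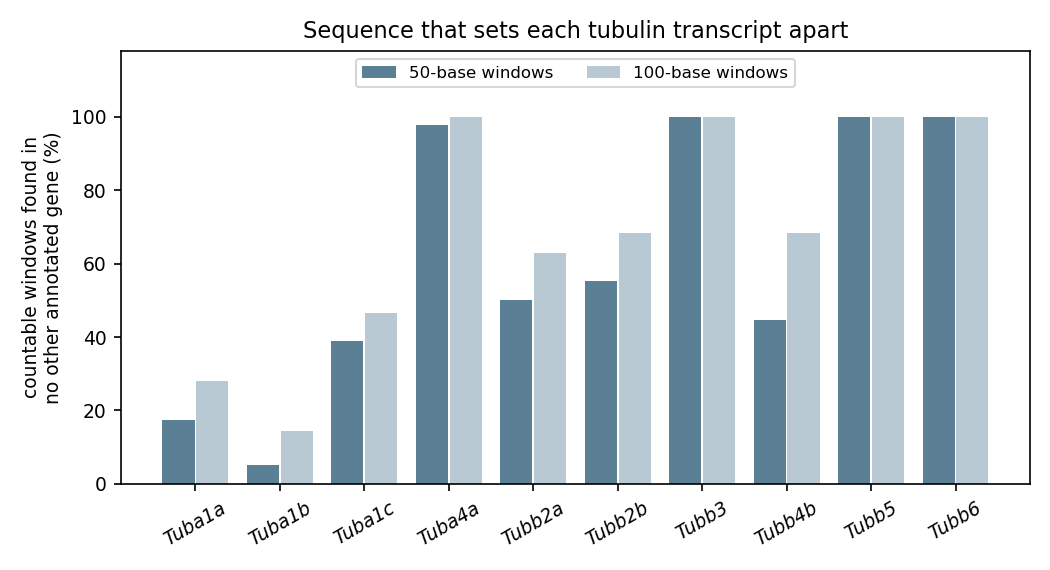
Share of windows of 50 bases (dark bars) and 100 bases (light bars), in percent on the vertical axis, that lie in countable exon and occur in no other annotated gene, for each of the 10 members. Tuba1b is lowest at 5.06% and 14.4%, while Tuba4a, Tubb3, Tubb5 and Tubb6 reach 97.7% or more.

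Of the 10 members, 8 had enough reads to be fitted, and all 8 had a higher mean on the low-NaCl diet. Values are counts scaled to library size (CPM, with TMM factors), listed in the order of libraries 1, 2 and 3. A positive log2 fold change, given ± SE from the fit over all genes, means a higher level on the low-NaCl diet. In bulk RNA, a change in the number of cells of a type and a change in RNA per cell cannot be told apart. Among the alpha genes, Tuba4a, on chromosome 1 (75214228 to 75219865, mm10), held the most reads. It measured 689, 504 and 623 CPM on the low-NaCl diet and 499.9, 287 and 462 CPM on the high-NaCl diet. All 3 low-NaCl values lay above the high-NaCl values, but by a narrow gap, since low-NaCl library 2 exceeded high-NaCl library 1 by little. The means were 605 ± 93.8 (SD, n = 3) against 416 ± 114 CPM (SD, n = 3), a log2 fold change of 0.54 ± 0.22.

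The other 3 alpha genes lie close together on chromosome 15, Tuba1b at 98931425 to 98934565, Tuba1a at 98949837 to 98953703 and Tuba1c at 99029891 to 99038110. Tuba1a, an alpha-tubulin best known from developing neurons, measured 83.9, 84.8 and 106 CPM on the low-NaCl diet and 59.4, 40.2 and 47.7 CPM on the high-NaCl diet. The diets did not overlap, and the log2 fold change was 0.90 ± 0.17. Tuba1c, a widely expressed alpha-tubulin, measured 203, 161 and 179 CPM against 126, 91.7 and 102 CPM. Here too the diets lay apart, with a log2 fold change of 0.77 ± 0.16. Tuba1b, another widely expressed alpha-tubulin, measured 62.1, 48.5 and 64.2 CPM against 62.8, 33.7 and 48.1 CPM. It was the only fitted member whose diets overlapped, because high-NaCl library 1 lay among the low-NaCl libraries, and its log2 fold change was 0.27 ± 0.22.

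Among the beta genes the widest diet differences belonged to the neighbours Tubb2a (34074274 to 34078007) and Tubb2b (34126748 to 34130466) on chromosome 13, both class II beta-tubulins that are abundant in brain. Tubb2b measured 185, 116 and 135 CPM on the low-NaCl diet and 66.9, 55.3 and 76.1 CPM on the high-NaCl diet. Its lowest low-NaCl library was well above its highest high-NaCl library, and the log2 fold change was 1.13 ± 0.20, or 2.19-fold. Tubb2a measured 274, 183 and 218 CPM against 123, 105 and 117 CPM. The high-NaCl libraries lay close together and all below the low-NaCl ones, with a log2 fold change of 0.97 ± 0.17, or 1.96-fold.

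Tubb4b (chromosome 2, 25222160 to 25224702), a widely expressed beta-tubulin that is also found in cilia, measured 225, 182 and 219 CPM on the low-NaCl diet and 137, 104 and 120.3 CPM on the high-NaCl diet. The diets did not overlap (log2 fold change 0.79 ± 0.15, 1.73-fold). Tubb5 (chromosome 17, 35833921 to 35838306), the class I beta-tubulin that most tissues express, measured 204, 169.4 and 233 CPM against 169.0, 109.5 and 160.9 CPM. Its diets barely separated, as low-NaCl library 2 exceeded high-NaCl library 1 by less than 1 CPM, and its log2 fold change was 0.47 ± 0.19. High-NaCl library 2 was the lowest of its diet for all 8 fitted members and low-NaCl library 2 was the lowest for 7 of 8, all but Tuba1a.

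**Figure D2:**
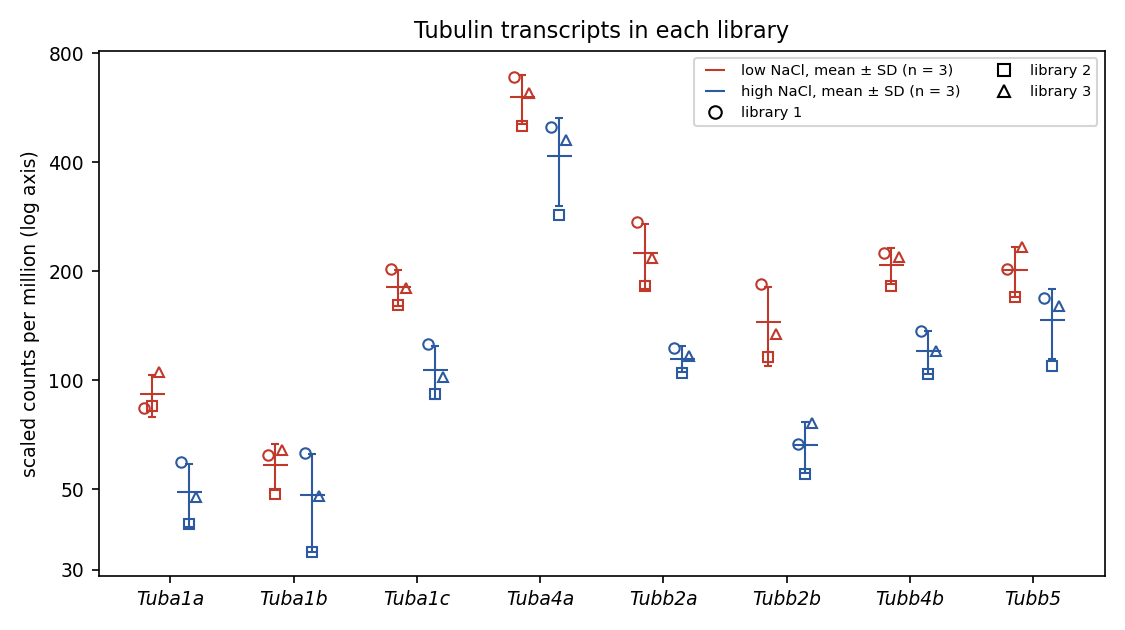
Scaled counts (CPM) on a log axis for the 8 fitted tubulin genes, with a symbol for each library (circle, square and triangle for libraries 1, 2 and 3) and a bar and whisker for mean ± SD. The low-NaCl points (red) lie above the high-NaCl points (blue) for every gene but Tuba1b, and library 2 of the high-NaCl diet is the lowest of its group throughout.

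Of the 8 fitted members, 5 (Tuba1a, Tuba1c, Tubb2a, Tubb2b and Tubb4b) were called higher by edgeR at an adjusted p under 0.05 and none was lower, where 1.72% of the 10567 genes tested were called higher. The diets did not overlap in 7 of the 8, where all 3 low-NaCl libraries lay above all 3 high-NaCl libraries in 12.3% of genes tested. Both counts come from the contrast that picked the family and support nothing. The median log2 fold change of the 8 was 0.78, beside -0.00205 over all genes tested. The number called was 3 without low-NaCl library 1, 2 without low-NaCl library 2, 1 without low-NaCl library 3 and, when high-NaCl library 3 was left out, 0.

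Each library came from 1 of 3 lanes of the sequencer: library 1 of both diets from lane 1, low-NaCl libraries 2 and 3 from lane 2, and high-NaCl libraries 2 and 3 from lane 3. Lane and diet can be told apart only within lane 1, with 1 library per diet and so no replicate check. There the log2 difference was 1.47 for Tubb2b, 1.16 for Tubb2a, 0.72 for Tubb4b and 0.68 for Tuba1c. It was 0.50 for Tuba1a, 0.46 for Tuba4a, 0.27 for Tubb5 and -0.02 for Tuba1b. With lane as a term, 0 of the 8 members were called.

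**Figure D3:**
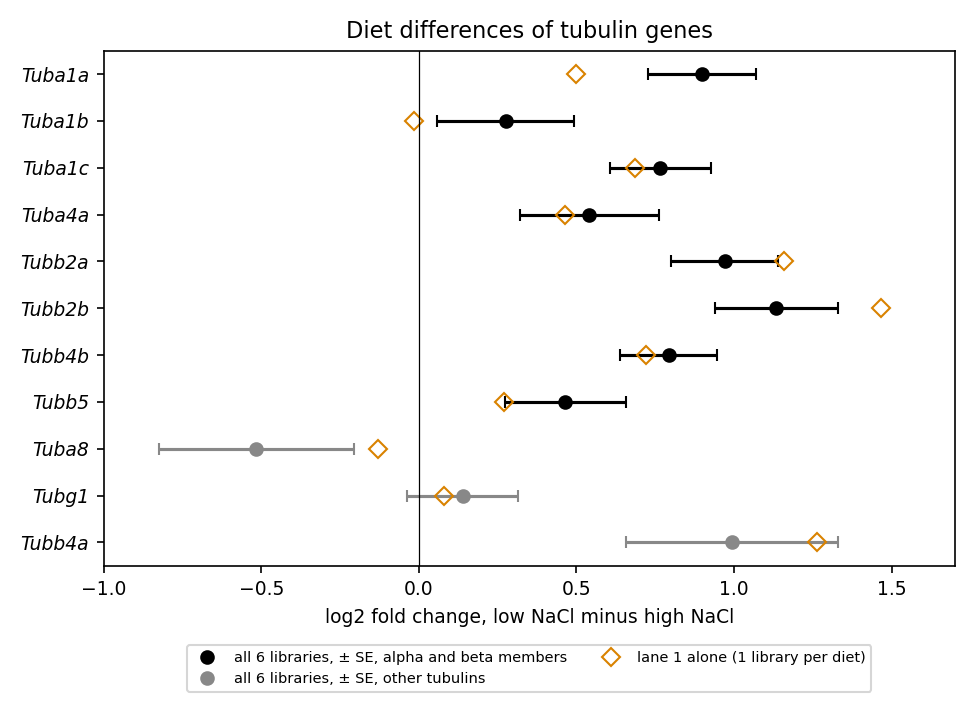
Log2 fold change, low-NaCl minus high-NaCl, on the horizontal axis for the 8 fitted members (black) and 3 other tubulin genes (grey), with circles and bars for all 6 libraries ± SE and open diamonds for lane 1 alone. All members lie to the right of 0 over all libraries, from 0.27 for Tuba1b to 1.13 for Tubb2b, and in lane 1 Tuba1b sits at -0.02.

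Summed over the 10 members, tubulin took 0.177 ± 0.0165% of all counted reads on the low-NaCl diet and 0.102 ± 0.00853% on the high-NaCl diet (SD, n = 3), a ratio of 1.73. Per library the shares were 0.186, 0.158 and 0.187% against 0.108, 0.0922 and 0.106%, so the diets did not overlap. Among reads from outside the mitochondrial chromosome the shares were 0.238, 0.198 and 0.236% against 0.154, 0.118 and 0.149%, again apart. In scaled counts the alpha genes together measured 936 ± 124 against 619.9 ± 152 CPM and the beta genes 781 ± 121 against 448 ± 65.0 CPM, ratios of 1.51 and 1.74.

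Levels of different genes were compared as CPM per kb of countable exon. Tuba4a had the highest level on both diets, at 426 ± 66.1 and 293 ± 80.1, and its libraries did not overlap those of any other member. Next came Tubb4b (141 ± 16 and 81.6 ± 11) and Tubb2a (140.1 ± 28.8 and 71.5 ± 5.81), which overlapped each other but not the genes below them. Tuba1c (91.7 ± 10.5 and 53.9 ± 8.99), Tubb5 (76.4 ± 12.1 and 55.4 ± 12.2), Tubb2b (75.4 ± 18.5 and 34.4 ± 5.44), Tuba1a (57.5 ± 7.74 and 30.9 ± 6.09) and Tuba1b (49.4 ± 7.23 and 40.9 ± 12.4) followed. On each diet, genes next to each other in that diet's own order of these 5 overlapped. The order rests on the length used. Per kb of 50-base windows found in no other gene, Tuba1b came first on both diets, at 1022 and 846 CPM, and Tuba4a second, at 452 and 310.5 CPM, while with 100-base windows Tuba4a came first, at 458 and 315 CPM, and Tuba1b second, at 376 and 311 CPM. Both scales apply only if reads shared between genes were not counted.

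The make-up of the pool was described as each gene's share of the summed level per kb over the 8 fitted members. Tuba4a held 40.8, 39.8 and 40.1% on the low-NaCl diet and 45.5, 39.7 and 46.3% on the high-NaCl diet, so the diets overlapped. The shares did not overlap for Tubb2b (8.07, 6.75 and 6.41% against 4.49, 5.66 and 5.64%) or for Tuba1b (4.43, 4.61 and 4.98% against 6.88, 5.62 and 5.81%). They came close but did not overlap for Tubb5 either, at 6.47, 7.18 and 8.08% against 8.25, 8.15 and 8.67%. The shares of a library add up to a fixed total, so a share can fall simply because other members rose more. The shares rest on the per-kb scale, where the order of genes depended on the length used, and have no counterpart over all genes. All alpha genes together held 59.1 ± 0.716% against 62.9 ± 3.07% of the pool, and high-NaCl library 2, at 59.4%, lay among the low-NaCl libraries.

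**Figure D4:**
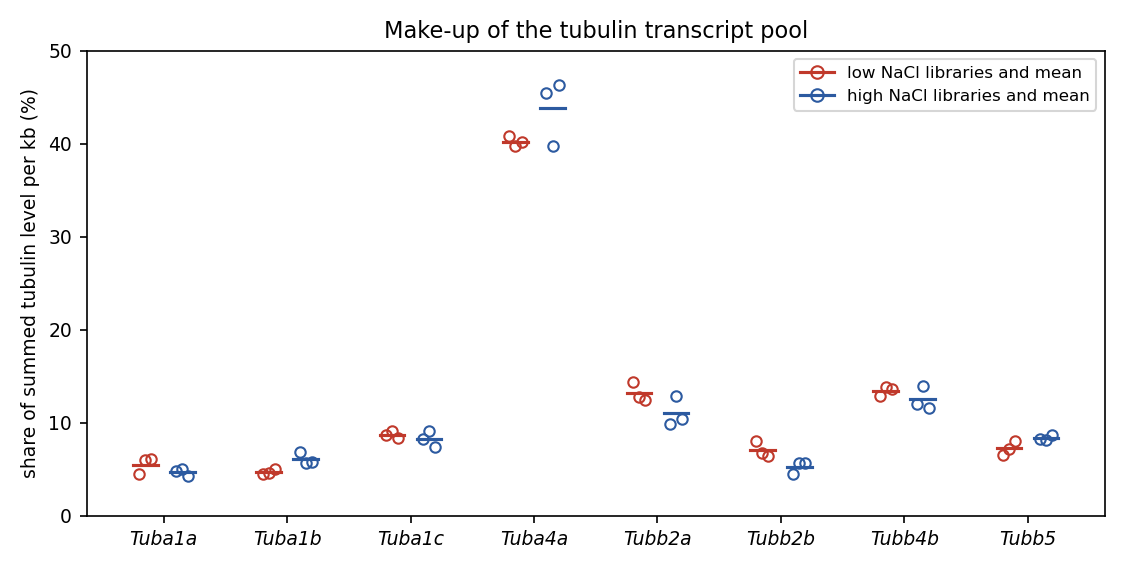
Share of the summed tubulin level per kb, in percent on the vertical axis, for each of the 8 fitted members and each library (circles, with a line at the mean of the 3 libraries of a diet). Tuba4a holds 39.7 to 46.3% in every library, and the low-NaCl circles lie above the high-NaCl ones for Tubb2b and below them for Tuba1b and Tubb5. The shares of a library add up to a fixed total, so they are not independent.

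Of the members, 2 could not be fitted. Tubb3, the class III beta-tubulin used as a marker of neurons, had 3, 3 and 3 reads on the low-NaCl diet and 5, 1 and 5 on the high-NaCl diet, although all of its 50-base windows are its own. Tubb6, a class V beta-tubulin, had 0, 4 and 4 reads against 0, 5 and 0. Its 2 deposited identifiers share 1551 exonic bases, in which no read was counted, so its level cannot be read from these files.

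The members were selected on this contrast, as the family was chosen by its higher tubulin counts on the low-NaCl diet. The rest of the tubulin superfamily was listed with those results known, so it is not an unselected comparison. It holds 10 further genes, of which 3 could be tested. Tubg1, the gamma-tubulin that nucleates microtubules, measured 65.3, 48.3 and 61.9 CPM against 61.9, 42.2 and 55.4 CPM, with overlapping diets (log2 fold change 0.14 ± 0.18, edgeR adjusted p = 0.726). Tuba8, a divergent alpha-tubulin, measured 14.1, 8.13 and 11.1 CPM against 15.4, 9.44 and 22.9 CPM (log2 fold change -0.52 ± 0.31, edgeR adjusted p = 0.425). Tubb4a, a beta-tubulin of brain, was low, at 2.51, 1.43 and 1.93 CPM against 1.05, 0.65 and 1.28 CPM. Its diets did not overlap, but it did not pass the test (log2 fold change 0.99 ± 0.34, edgeR adjusted p = 0.15). The gamma gene Tubg2, whose countable share is 22.6%, had 0 to 3 reads per library, as did Tuba3a, Tuba3b and Tubal3, and Tubb1, Tubd1 and Tube1 had no read, of which Tubd1 has no countable base.

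Genes that fold, modify, bind or move along microtubules were tested in the same fit. Over 7 lists 89 of 149 genes could be tested, 2 were higher on the low-NaCl diet and none was lower (edgeR, adjusted p under 0.05), where 1.72% and 1.74% of all genes tested were called higher and lower. At an unadjusted p under 0.05, 9 of the 89 were higher and 5 lower, beside 9.17% and 9.12% of all genes tested. The median log2 fold change was 0.02. Both called genes are parts of motors. Kif1b, a kinesin that carries mitochondria and vesicle precursors, measured 5.22, 5.19 and 5.61 CPM on the low-NaCl diet and 2.20, 2.35 and 2.23 CPM on the high-NaCl diet. Its libraries hardly varied within a diet, and it rose 2.36-fold (log2 fold change 1.24 ± 0.19, edgeR adjusted p = 0.012). Its countable share was 39.8%. Its edgeR adjusted p was 0.0529 with low-NaCl library 2 left out, 0.0551 with high-NaCl library 3 left out, 0.104 without the libraries of over 25% mitochondrial counts and 0.262 with a lane term. Over 20 alternatives, DESeq2 and limma-voom included, the adjusted p was 1.36e-06 to 0.262. Dynll1, a light chain of cytoplasmic dynein that also joins other complexes, measured 342, 318 and 368 CPM against 202, 232 and 171 CPM and rose (log2 fold change 0.76 ± 0.16, edgeR adjusted p = 0.0326). The Dynll1 call ended when any single library other than high-NaCl library 2 was left out (edgeR adjusted p from 0.0532 to 0.143). It also ended under scaling to total counts (0.0682), under a library size without mitochondrial counts (0.0524), without the libraries of over 25% mitochondrial counts (0.233) and with lane in the model (0.365). Over 21 alternatives, the same 2 tools included, the adjusted p was 0.000364 to 0.365. Of the 23 motor genes tested these 2 rose and none fell. Next by p came Klc1, a kinesin light chain, at 5.92 ± 0.455 against 4.06 ± 0.715 CPM (edgeR adjusted p = 0.183), and Dynll2, another dynein light chain, at 29.8 ± 2.13 against 21.6 ± 5.50 CPM (edgeR adjusted p = 0.216, and 0.0278 without high-NaCl library 2).

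None of the 9 tested cofactors that assemble the tubulin dimer or act in autoregulation passed, and their median log2 fold change was -0.11. Ttc5, which encodes the reader of nascent tubulin, measured 54.3, 48.3 and 46.2 CPM against 56.7, 55.5 and 47.9 CPM, with overlapping diets (log2 fold change -0.11 ± 0.13, edgeR adjusted p = 0.722). Tbca, the cofactor that holds beta-tubulin, measured 164 ± 16.2 against 180.3 ± 3.81 CPM (edgeR adjusted p = 0.628), and Arl2, a small GTPase of dimer assembly, 107 ± 20.4 against 125 ± 41.3 CPM (edgeR adjusted p = 0.661). Tbcel, a relative of the dimer cofactor Tbce with a countable share of 8.40%, had the smallest p of this list (log2 fold change -0.86 ± 0.61, edgeR adjusted p = 0.505). None of the 13 tested subunits of prefoldin and of CCT, the ring chaperonin that folds tubulin and actin, passed either, with a median of 0.19. Cct5 measured 293, 333 and 330.3 CPM against 206, 279 and 254 CPM, and its diets did not overlap (log2 fold change 0.37 ± 0.15, edgeR adjusted p = 0.242). Cct6a had a log2 fold change of 0.47 ± 0.20 (edgeR adjusted p = 0.249, and 0.0213 with the replicate number as a block), Cct8 of 0.23 ± 0.13 (0.395) and the prefoldin subunit Pfdn5 of -0.32 ± 0.20 (0.445).

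None of the 16 tested enzymes that modify tubulin passed (median log2 fold change -0.15). Ttl, the ligase that restores the final tyrosine of alpha-tubulin, measured 32.6 ± 2.27 against 27.1 ± 5.37 CPM (edgeR adjusted p = 0.445). The deglutamylases Agbl3 and Agtpbp1 had log2 fold changes of -0.51 ± 0.24 (edgeR adjusted p = 0.29) and 0.75 ± 0.47 (0.446), and the deacetylase Sirt2, whose countable share was 2.52%, of -0.42 ± 0.26 (0.439). None of the 9 tested microtubule-associated and plus-end proteins passed (median 0.17). Mapre1, which encodes the plus-end tracking protein EB1, measured 110.0 ± 5.82 against 98.0 ± 12 CPM (edgeR adjusted p = 0.567). The smallest p of that list belonged to Map7d1, at 1.13 ± 0.345 against 0.564 ± 0.161 CPM (edgeR adjusted p = 0.189), and its countable share was 3.28%. The linker of actin and microtubules Macf1 had a log2 fold change of 0.29 ± 0.22 (edgeR adjusted p = 0.551) and the minus-end protein Camsap1 of 0.27 ± 0.23 (0.589).

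Stathmins and severing or depolymerizing proteins had 5 tested genes, none of which passed. Kif18a, a mitotic kinesin that shortens microtubules, measured 0.82, 0.50 and 0.50 CPM on the low-NaCl diet and 1.29, 1.07 and 1.76 CPM on the high-NaCl diet. Its diets lay apart at this low level (log2 fold change -1.18 ± 0.35, edgeR adjusted p = 0.103, and 0.0454 by DESeq2). Stmn1, a protein that binds free tubulin dimers, measured 5.18 ± 0.322 against 7.11 ± 2.17 CPM (edgeR adjusted p = 0.358). Katnal1, which encodes a katanin-like severing protein, had a log2 fold change of 0.20 ± 0.15 (edgeR adjusted p = 0.516). Of the 14 tested genes of the gamma-tubulin ring complex and of augmin, which branches microtubules, none passed (median -0.07). Haus1, an augmin subunit, measured 4.65, 4.62 and 4.22 CPM against 6.24, 8.28 and 8.19 CPM, with the diets apart (log2 fold change -0.75 ± 0.19, edgeR adjusted p = 0.0633). It was called lower by DESeq2 (adjusted p = 0.00506) and with the replicate number as a block (0.0362). Mzt1, a small subunit of the ring complex, measured 44.4 ± 1.73 against 55.4 ± 2.01 CPM (edgeR adjusted p = 0.183), while Tubgcp6 and Tubgcp4 had log2 fold changes of 0.51 ± 0.20 (0.219) and 1.06 ± 0.44 (0.241).

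As a comparison, none of 27 tested genes of the actin cytoskeleton passed, with a median log2 fold change of 0.11. Actb and Actg1, the cytoplasmic actins, together measured 1621 ± 87.3 CPM on the low-NaCl and 1462 ± 259 CPM on the high-NaCl diet, a ratio of 1.11 beside 1.61 for the summed tubulin members on the same scale. Myh9, the heavy chain of nonmuscle myosin, measured 664 ± 34.9 against 508 ± 26.9 CPM (edgeR adjusted p = 0.177), and Vil1, the microvillus protein villin, 5.56 ± 2.87 against 2.65 ± 0.231 CPM (0.172, and 0.00854 without low-NaCl library 1). The actin nucleator subunit Arpc2 and the capping protein Capza1 had log2 fold changes of 0.57 ± 0.25 (edgeR adjusted p = 0.264) and 0.41 ± 0.20 (0.327).

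**Figure D5:**
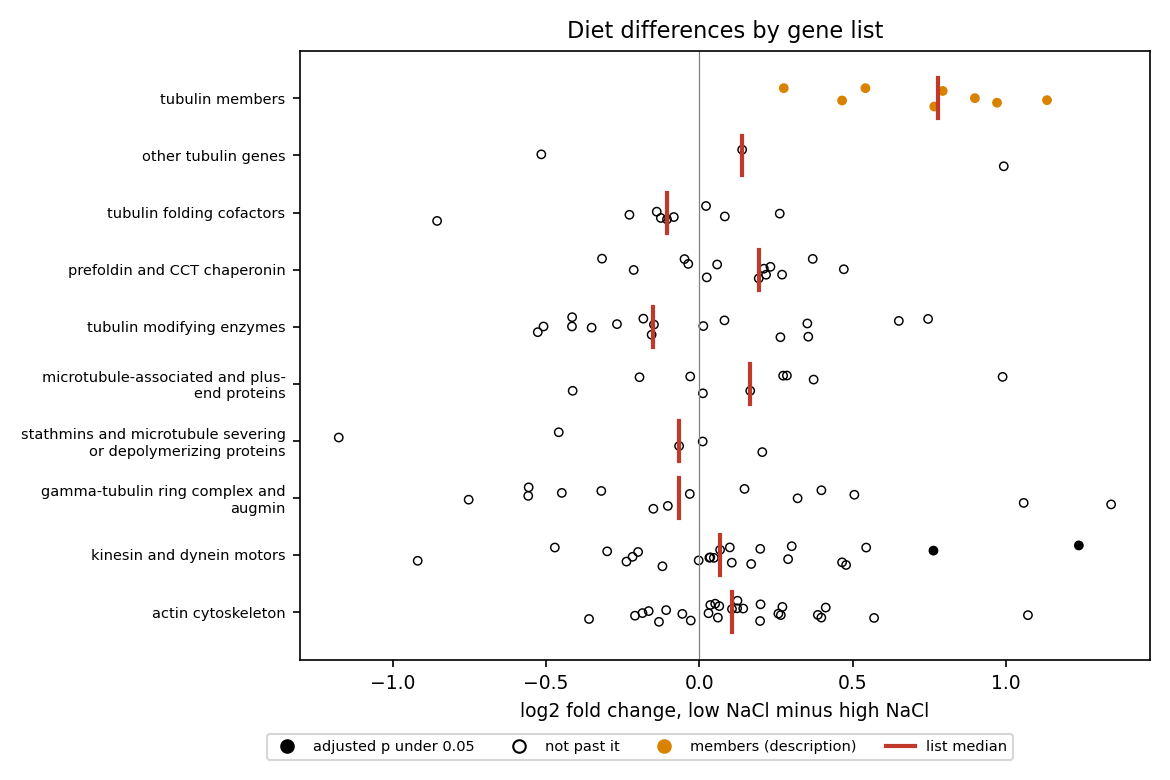
Log2 fold change, low-NaCl minus high-NaCl, on the horizontal axis for every tested gene of each list, with filled black circles past an adjusted p of 0.05, open circles not past it, orange circles for the members, which chose the family and are a description, and red lines at list medians. The member median lies at 0.78 and those of the other lists between -0.15 and 0.19.

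The 5 genes whose level followed that of summed tubulin most closely over the 6 libraries, among genes whose log2 CPM averaged 3 or more, were Gpr107 (Pearson r = 0.996), Man1b1 (0.991), Aars (0.983), Angptl8 (0.980) and D17H6S53E (0.978). These are descriptions of 6 libraries that share diet and lane with the members. Gpr107 measured 130.3, 117 and 125 CPM against 113, 98.0 and 107 CPM, so it followed the order of the libraries over a narrower range than tubulin did. None of the 5 passed the diet test, with log2 fold changes from 0.18 for Man1b1 (edgeR adjusted p = 0.484) to 0.72 for Angptl8 (0.0953). Angptl8 was called higher by DESeq2 (adjusted p = 0.029), with no filter on low counts (edgeR adjusted p = 0.0479) and with the replicate number as a block (0.0151), and Aars with that block (0.0389).

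Within 50 kb of the 8 fitted members lay 25 other tested genes, with a median log2 fold change of -0.11. Of these, 2 were called, beside 3.46% of all genes tested. They were Nrarp near Tubb4b, a Notch target that fell (log2 fold change -1.06, edgeR adjusted p = 0.0179), and Ier3 near Tubb5, a stress-induced gene that rose (1.23, 0.0152). Both calls come from the main fit and were not followed through the alternative settings. Lmbr1l, within 50 kb of Tuba1a and Tuba1b, had a log2 fold change of -0.07 (edgeR adjusted p = 0.836).

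RefSeq promoters (build GRCm38.p6) were at hand for 8 of the 10 members, Tubb2b and Tubb6 being the others. The 120 bases upstream of the start of 3 members, Tubb2a, Tubb4b and Tuba1c, are shown, 5′ to 3′ on the gene's strand. Capitals mark matches on either strand to the CCAAT box, the TATA box written as TATAAA, and the cyclic AMP response element, TGACGTCA. Tuba1a is not shown, although its diet difference (log2 fold change 0.90) was wider than those of Tubb4b and Tuba1c. Its 120 bases held none of the marked motifs, but neither did those of Tuba1c, which are shown. The 3 stretches shown lie at chr13:34078009-34078128 (minus strand), chr2:25224703-25224822 (minus strand) and chr15:99029771-99029890 (plus strand).
Tubb2a: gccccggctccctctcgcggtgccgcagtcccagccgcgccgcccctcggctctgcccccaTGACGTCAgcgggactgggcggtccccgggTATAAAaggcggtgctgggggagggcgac
Tubb4b: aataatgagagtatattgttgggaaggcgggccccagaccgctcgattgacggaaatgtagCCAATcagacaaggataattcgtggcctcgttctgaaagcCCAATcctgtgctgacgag
Tuba1c: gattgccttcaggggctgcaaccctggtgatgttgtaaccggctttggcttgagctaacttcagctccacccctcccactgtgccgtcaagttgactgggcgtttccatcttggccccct
Over the 250 bases upstream, searched on both strands, CCAAT was found in 5 of 8 members and in 33.8% of 32851 promoters, and GGGCGG in 6 of 8 and in 32.7%. Tubb2a alone held TATAAA (12.4% of promoters) and the cyclic AMP response element (1.55%). The E-box CACGTG was found in Tubb5 alone (6.02%). The AP-1 motif TGACTCA (4.46%) and 2 steroid receptor motifs (0.00913% and 0.00609%) were found in none of the 8 windows. Nor was the endoplasmic reticulum stress element (0.113%), which contains CCAAT, or the heat shock element (0.466%). A match or its lack describes these letters only.

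Markers of several cell types and the mitochondrial share differed between the diets along with tubulin, and their part in the difference was not tested. Marker calls are from the main fit alone, where 1.72% of all genes tested were called higher and 1.74% lower. Markers of principal cells, the water-transporting cells of the collecting duct, summed to 4813 to 6603 CPM on the low-NaCl diet and 10020 to 12518 CPM on the high-NaCl diet, and 3 of 9 tested fell. For 7 of the 9, all 3 low-NaCl libraries lay below all 3 high-NaCl libraries, beside 11.6% of all genes tested. For 1 they lay above, beside 12.3%. Markers of the acid-base transporting intercalated cells summed to 2920.3 to 5664 against 1893 to 2166 CPM, and 6 of 10 tested rose. For all 10 the low-NaCl libraries lay above the high-NaCl ones. No marker of either cell type was at 0 in every library. Markers of proliferating cells, in which tubulin is usually abundant, summed to 91.0 to 101.4 against 106 to 127 CPM, with 2 of 8 tested lower and none higher. Markers of neurons and glia summed to 6.31 to 7.15 against 1.65 to 3.49 CPM. Of these, 7 of 10 were at 0 in every library, among them Snap25, Elavl4, Th and Uchl1, and only 2 could be tested. Nefl, the light neurofilament, held most of the sum and rose to 5.70 from 1.77 CPM (edgeR adjusted p = 0.0121). The other tested marker had a log2 fold change of -0.19, so the difference of the sum is mainly that of 1 gene.

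Among 8 genes of injured tubule, Lcn2 and Cdkn1a rose of 6 tested, and the list summed to 1500.1 to 4057 against 3039 to 3354 CPM. The log2 fold change was positive for 5 of the 6, beside 5267 of all 10567 genes tested. It ran from -0.27 to 2.14 with a median of 1.33. Proximal tubule markers summed to 83.7 to 129 against 69.1 to 81.3 CPM with 1 of 10 tested higher, and thick ascending limb markers to 770 to 848 against 548 to 713 CPM with 1 of 5 higher. Connecting and distal convoluted tubule markers summed to 28700 to 31836 against 30110 to 38933 CPM, with 2 of 4 tested lower. Endothelial (18.9 to 24.2 against 19.9 to 29.5 CPM), stromal (15.3 to 54.9 against 21.4 to 24.4 CPM), podocyte (5.28 to 38.3 against 18.0 to 37.3 CPM), multiciliated (3.02 to 3.25 against 3.11 to 4.74 CPM) and immune markers (0.341 to 0.896 against 0.55 to 1.03 CPM) overlapped. None of the tested markers of the first 4 of these lists passed, and no immune marker had enough reads to be tested. Mitochondrial reads made up 20.5 to 21.8% of counts on the low-NaCl diet and 29.9, 21.9 and 28.7% in high-NaCl libraries 1, 2 and 3. With high-NaCl libraries 1 and 3 left out, the lone high-NaCl library 2 was assumed to vary like the others. Log2 fold changes then ran from 0.77 for Tuba1b to 1.37 for Tubb2b. High-NaCl library 2 was the lowest of its diet for all 8 fitted members. The differences were wider than those over all 6 libraries. High-NaCl library 2 also had the lowest mitochondrial share of its diet, at 21.9%. With this library alone, its low tubulin level and its mitochondrial share cannot be told apart. The cause of the wider differences was not tested.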

How the data were processed

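RNA of collecting duct cells was sequenced in 6 libraries, 3 per diet. Per the file headers, the authors deposited raw read counts from featureCounts 1.5.0-p3, run on the exons of UCSC's mm10 annotation with no option for strand, overlap or multi-mapping. FastQC, Subread and edgeR appear in the submitters' processing notes with no version. The aligner is not given in the sources used here. All 59121 identifiers are transcripts. They were matched to GENCODE M21 genes by identical introns (41510) or else by at least 50% of exonic bases on the same strand (11061), and summed to 24938 genes. The 6550 unmatched (5.57% of counts) entered library sizes only.

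Genes were tested with edgeR 4.0.16 (R 4.3.3, limma 3.58.1): total counts as library size, filterByExpr, TMM, glmQLFit with robust estimation and glmQLFTest without covariates, Benjamini-Hochberg over 10567 genes, threshold 0.05. The SE was taken as the size of the log2 fold change over the square root of F. The biological coefficient of variation was 21.6%. The fit was tested on simulated counts that held no lane effect, so the outcome does not speak to lane. It recovered 73 of 100 genes changed 2-fold and 99 of 100 changed 4-fold, and 6.52% of its 184 calls were false. Chi-square per degree of freedom between replicates ran from 38.2 to 247, far over sampling noise. Differences of preparation or lane also raise this value, so it cannot show whether libraries came from separate animals. Each library was counted as its own replicate. Libraries held 40101899 to 46861531 counts, which with the countable share sets a gene's precision. Coding sequences and windows came from GENCODE transcripts and were compared with Biopython 1.88 in Python 3.11.15. Lane was read from the file headers.

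Members, lists and the rule for named genes were chosen with earlier results of these data known. Named were all tubulins, up to 4 tested genes of smallest p per list (1 of them is not reported here), and the 5 genes most like summed tubulin. The neighbours, the called marker genes and the actin sum were named after their values were seen. Alternatives were other scalings and filters, DESeq2 1.42.0, limma-voom, a lane term, the replicate number as a block, each library left out and other ways of matching identifiers. Added after the data were seen were a library size without mitochondrial counts, leaving out libraries with over 25% mitochondrial counts, and only genes at least 50% countable.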

Additional observations from a re-analysis of the deposited data

How the results depend on the processing

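The 8 fitted members kept a positive log2 fold change in 167 of 168 refits (21 alternatives for each of 8 genes). The exception was Tuba1b with a lane term (-0.0169). Summed tubulin held a ratio of 1.65 to 1.83 without each library. The refits reuse the libraries whose contrast picked the family, so neither result supports a diet difference. The number of members called higher was 5 in the main analysis, 0 with a lane term, 1 without the libraries of over 25% mitochondrial counts and 0 to 5 without each library. Over all genes, the numbers higher and lower were 182 and 184, against 81 and 55 with total-count scaling, 411 and 448 by DESeq2, 1 and 2 with a lane term, and 31 and 92 without the libraries of over 25% mitochondrial counts. They were 106 higher without mitochondrial counts in the library size, 281 lower with no filter, and 34 to 292 higher and 36 to 255 lower without each library. The called neighbours and marker genes were not followed one by one through these settings. For the microtubule and actin lists, 2 were higher and 0 lower, against 1 higher with total-count scaling, with a library size without mitochondrial counts or with only genes at least 50% countable, 0 higher with a lane term or without the libraries of over 25% mitochondrial counts, 2 lower by DESeq2, and 0 to 4 higher and 0 to 0 lower without each library. With fewer samples or a lane term fewer degrees of freedom are left; beyond that the cause was not tested.

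With the replicate number as a block 467 and 447 genes were called over all genes, 7 members and 1 lower gene of the lists. Deviations from the diet means correlated at 0.22, 0.29 and -0.07 between libraries of the same number, and low-NaCl library 3 correlated best with high-NaCl library 2. The labels tie no samples together by number, and not every pair's correlation was over 0.1, so the numbers were not taken to pair the samples. Library 1 of both diets also shares a lane.

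Other named genes changed sign as follows. With a lane term the log2 fold change was 0.0259 for Tbca, 0.0428 for Stmn1 and -0.37 for Vil1. Without each library it was -0.432 to 0.0473 for Arl2, above 0 without high-NaCl library 1, and -0.00388 to 0.261 for Tubg1, below 0 without high-NaCl library 2. Without the libraries of over 25% mitochondrial counts it was 0.21 for Tuba8, 0.27 for Arl2, 0.0121 for Pfdn5, 0.0740 for Sirt2, -0.0286 for Mapre1 and -0.14 for Camsap1. It was -0.17 for Macf1 with identical introns only and -0.0880 with each identifier alone. Tubb3 had too few reads to be fitted (1 to 5 per library), although all of its exonic bases are countable. The countable share limits Tubb6.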
